A study of Rattus norvegicus with 105 samples.

Results

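The mitochondrial respiratory chain and ATP synthase were followed through 80 nuclear genes for their subunits, in RNA from rat frontal cortex. A gene was a member when the platform's annotation gave a probe set the single symbol of a subunit of complex I (Ndufa, Ndufb, Ndufc, Ndufs and Ndufv genes, without the Ndufaf assembly factors), complex II (Sdha to Sdhd), complex III (Uqcr genes), complex IV (Cox4 to Cox8 genes) or complex V (Atp5 genes). This gave 36, 4, 7, 17 and 16 genes for complexes I to V, out of 14217 genes with a single symbol. Each gene was read from its probe set with the highest mean signal, and 72 of the 80 had 1 probe set only. The 8 with several were Ndufa7, Ndufa9, Ndufv3, Sdhd, Uqcrc2, Atp5if1, Atp5me and Atp5po. Values of their other probe sets are given below for Ndufa9 and Uqcrc2 only. The Cox6c-ps1 symbol, which is that of a pseudogene, met the rule and was kept. A further 7 probe sets that share a subunit's symbol with another gene, among them ones for Cox5a, Cox7a2 and Uqcrb, were left out, and Cox5a was read from another probe set of low signal.

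Affymetrix rat arrays had been hybridised with RNA from 105 samples in 3 experiments, and the labels gave neither strain, sex nor age. The lesion experiment had 12 arrays of the ventral hippocampal lesion group and 10 of its sham group. The TTX experiment had 11 arrays from rats given tetrodotoxin, a blocker of voltage-gated sodium channels, to disrupt the same region, and 9 of its own sham group. The neuroleptic experiment, on chronic dosing, had 10 low, 9 medium and 8 high clozapine arrays, 9 haloperidol arrays per dose level, and 9 vehicle arrays. Clozapine is an atypical and haloperidol a typical antipsychotic drug, and the labels give dose levels in words without amounts. Nothing in the labels ties each array to its own animal, and the p-values reflect only how these samples scatter. All values are log2 of intensities that were quantile-normalised within an experiment, so levels are set side by side within an experiment only.

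Complexes I to IV pass electrons from NADH and succinate through ubiquinone and cytochrome c to oxygen and pump protons across the inner mitochondrial membrane at complexes I, III and IV, and complex V uses the returning protons to make ATP. Most subunits are encoded in the nucleus, and a few core subunits, which are not members here, in mitochondrial DNA. Neurons depend on this machinery for ion pumping and synaptic transmission, and cytochrome oxidase activity has long been used as a marker of neuronal activity in cortex.

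Markers of neurons and astrocytes lay at a median percentile of about 98 of all probe sets in each experiment (97.7 to 98.6), and cortical projection neuron markers at 80.9 to 82.6. Blood cell markers lay at 30.0 to 38.9. In bulk tissue, fewer cells of a type and less RNA per cell cannot be told apart. Of the 80 members 75 lay among the 60% of probe sets with the highest mean in every experiment and were tested. The 5 others, Cox4i2, Cox6b2, Cox6c-ps1, Cox7b2 and Cox8b, all of complex IV, were described but not tested. Arrays of a group carried consecutive sample numbers in the titles, in 29 runs over the 63 neuroleptic arrays, 8 over the 22 lesion arrays and 6 over the 20 TTX arrays. On 4 arrays, lesion replicate 7, lesion sham replicate 9, haloperidol medium replicate 8 and haloperidol high replicate 8, the mean correlation with the rest of the experiment was low.

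The promoters of 4 subunit genes, 1 from each of complexes I to IV, are shown. These genes passed the test of clozapine against haloperidol with the block of sample numbers as a term but not in the fit without it. They are shown for their motifs of the ETS, YY1 and NRF1 factors, which stood in 20, 19 and 6 of 72 member promoters. The sequences are from RefSeq and span 250 bases before to 50 after the gene start. Capitals mark matches to CCGGAAG (ETS), AAGATGG (YY1) or CGCATGCG (the NRF1 core), searched on both strands.

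Ndufs7, GRCr8 chr7:10110449-10110748, minus strand: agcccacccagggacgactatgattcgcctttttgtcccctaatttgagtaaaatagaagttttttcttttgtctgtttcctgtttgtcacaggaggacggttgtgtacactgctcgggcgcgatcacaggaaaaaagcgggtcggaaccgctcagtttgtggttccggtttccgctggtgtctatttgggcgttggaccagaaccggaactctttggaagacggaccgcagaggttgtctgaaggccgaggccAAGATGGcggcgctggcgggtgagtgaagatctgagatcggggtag

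Uqcrc1, GRCr8 chr8:118467973-118468272, plus strand: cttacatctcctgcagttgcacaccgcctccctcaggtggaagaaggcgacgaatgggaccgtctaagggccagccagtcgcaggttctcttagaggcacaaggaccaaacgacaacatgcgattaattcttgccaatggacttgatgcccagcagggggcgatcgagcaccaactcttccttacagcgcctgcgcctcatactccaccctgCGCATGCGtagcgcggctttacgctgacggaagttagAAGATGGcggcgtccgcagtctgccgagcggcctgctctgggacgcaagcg

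Sdhb, GRCr8 chr5:158547684-158547983, plus strand: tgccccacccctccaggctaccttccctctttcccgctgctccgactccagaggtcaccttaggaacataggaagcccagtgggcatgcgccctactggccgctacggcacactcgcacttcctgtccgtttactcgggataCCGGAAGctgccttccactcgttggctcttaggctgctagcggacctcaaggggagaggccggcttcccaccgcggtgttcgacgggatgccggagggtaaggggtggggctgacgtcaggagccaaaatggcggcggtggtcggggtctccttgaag

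Cox5b, GRCr8 chr9:46417587-46417886, plus strand: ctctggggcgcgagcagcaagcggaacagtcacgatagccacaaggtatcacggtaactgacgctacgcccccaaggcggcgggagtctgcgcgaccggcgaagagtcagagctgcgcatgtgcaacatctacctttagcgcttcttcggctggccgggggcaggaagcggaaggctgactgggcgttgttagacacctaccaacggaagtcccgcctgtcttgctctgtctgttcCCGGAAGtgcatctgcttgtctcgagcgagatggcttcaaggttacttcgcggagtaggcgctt

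A promoter in the table was found for 72 members. At least 1 of the 3 motifs stood in 47.2% of them, against 23.4% of the 11700 promoters of genes on the array. The ETS letters stood in 27.8% of member promoters against 15.1%, the YY1 letters in 26.4% against 7.84%, and the NRF1 core in 8.33% against 3.09%. The SP1 letters GGGCGG stood in 43.1% against 57.5%. Ribosomal protein and proteasome subunit promoters held at least 1 of the first 3 motifs at 45.7% and 46.9%. The letters of the 3 motifs do not contain each other. Member promoters had a median of 56.0% G and C against 60.0% for genes on the array. These matches are descriptions of sequence, not of binding.

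Taken over all members, subunits varied together from array to array, with the smallest margin over independence in the TTX experiment. The score used here is the mean, over the 80 members, of each gene's log2 value centred on its mean over the experiment. Its SD within groups was 0.086 for lesion, 0.035 for TTX and 0.067 for neuroleptic arrays, while members varying independently would give 0.026, 0.027 and 0.023. The untested complex IV genes, with SDs within groups of 0.45 to 1.34 on TTX arrays, raise the TTX value for independence. On TTX arrays complex I gave 0.036 against 0.023 and complex III 0.057 against 0.035. For single complexes the SD was not always the larger. On TTX arrays complex II gave 0.034 against 0.039 and complex IV 0.105 against 0.112, and on lesion arrays complex II gave 0.0431 against 0.0437. In every other complex and experiment the SD was the larger, though by little for complex IV on neuroleptic arrays (0.091 against 0.088). The groups held 6.84%, 15.3% and 12.1% of the variance of this score, and blocks of consecutive sample numbers (2 blocks each in the lesion and TTX experiments and 3 in the neuroleptic experiment) held 9.64%, 39.1% and 26.0%. The TTX groups held 21.0% in complex IV, which has the untested genes, and 1.91%, 2.66%, 0.642% and 2.40% in complexes I, II, III and V. Over the 75 tested members the mean TTX and TTX sham scores were 0.0047 and -0.0057, against 0.013 and -0.015 over all 80. In the neuroleptic experiment, neighbours in sample number that belonged to different groups differed in score by a median of 0.036, against 0.065 over all pairs of arrays from different groups. The lesion experiment gave 0.086 against 0.081, with 7 such pairs of neighbours, and the TTX experiment 0.033 against 0.037, with 5. The neuroleptic median came from 28 pairs, so the other experiments have too few to show whether they share its pattern. Block means of the score were -0.042, 0.042 and -0.00035 for numbers 2 to 22, 23 to 43 and 44 to 64. No source used here says what the numbers stand for.

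**Figure D1:**
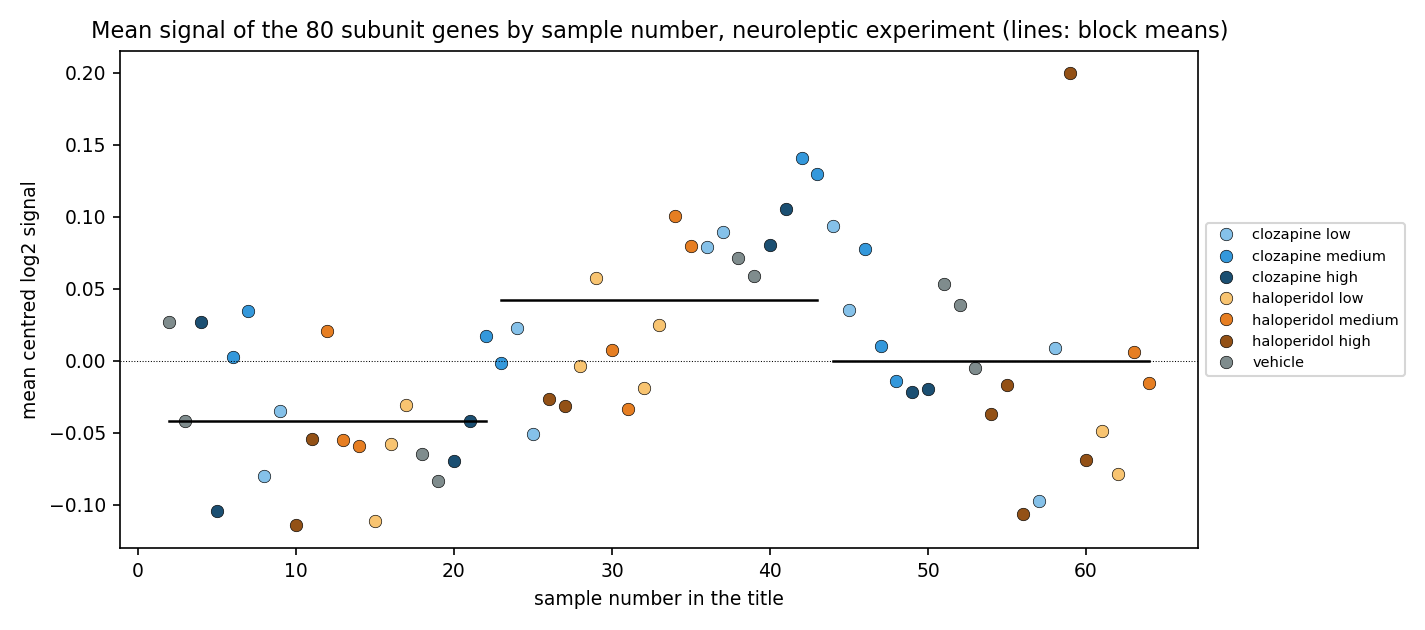
Mean centred log2 signal of the 80 subunit genes (y axis) against the sample number in the title (x axis) for the 63 neuroleptic arrays, coloured by group, with lines at the mean of each block. The block of numbers 23 to 43 averages 0.042 and that of numbers 2 to 22 averages -0.042, and haloperidol high replicate 8 stands highest at 0.200.

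The lesion comparison addressed subunit transcripts in a cortical area that the damaged hippocampal region projects to. No subunit passed an adjusted p under 0.05 (limma, Benjamini-Hochberg adjustment over 18625 probe sets), and 0% of all probe sets did. At an unadjusted p under 0.05, 10 of the 75 tested members stood higher in the lesion group and 0 lower, which is 13.3% against 4.25% of all probe sets on the higher side and 7.79% on either side. Of the 80 members 62 had positive differences, with a median of 0.045, against a median of -0.0010 over all probe sets tested. Complex I had 31 of 36 positive differences and a median of 0.059. Cytosolic ribosomal proteins, with 37 of 42 positive and a median of 0.054, and proteasome subunits, with 28 of 36 and 0.050, had medians of like size.

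The subunits with the smallest p were mostly accessory subunits of complex I. Ndufc2, of the membrane arm, had a lowest, median and highest log2 value of 14.57, 14.80 and 15.07 on the 12 lesion arrays, and 14.58, 14.65 and 14.71 on the 10 sham arrays. The groups overlapped at the low end, while 10 of 12 lesion arrays lay above the sham mean, and the log2 difference was 0.16 ± 0.052 (SE, limma adjusted p = 0.550). Ndufb1, a further membrane arm subunit, ran over 13.62, 13.86 and 14.41 on lesion arrays and 13.52, 13.65 and 13.89 on sham arrays, a difference of 0.20 ± 0.074 (SE). Ndufb7 differed by 0.14 ± 0.056 (SE) and the zinc-binding accessory subunit Ndufs6, which was named after its values were seen, by 0.12 ± 0.050 (SE). In complex V, Atp5if1, the inhibitor of ATP hydrolysis by the synthase, averaged 14.32 ± 0.16 (SD, n = 12) on lesion arrays and 14.19 ± 0.061 (SD, n = 10) on sham arrays. Ndufb8, Ndufa1 and Ndufb3 of complex I, Uqcr10 of complex III and Atp5pd of the synthase's peripheral stalk, also named after their values were seen, completed the 10, with differences of 0.19, 0.11, 0.091, 0.097 and 0.11. Of the 80 members 49 were positive within both blocks of sample numbers and 10 were negative in both. On the other side, the core subunit Ndufs7, which carries an iron-sulfur cluster, had a difference of -0.077 ± 0.071 (SE).

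The lesion arrays also varied more among themselves than the sham arrays. Of the 75 tested members 67 had a larger SD in the lesion group, 89.3% against 68.2% of all probe sets tested, with a median SD of 0.14 on lesion arrays and 0.079 on sham arrays. Ndufs7 ran over 13.71, 14.14 and 14.46 (lowest, median, highest) on lesion arrays and 14.16, 14.19 and 14.30 on sham arrays. Lesion replicate 7 had the highest score, 0.277, and it is among the arrays of low correlation. Over the 75 tested members alone the scores of lesion arrays ran over -0.086 to 0.241. A measure of RNA quality, the log2 ratio of 3′ to 5′ control probe sets, also varied more on lesion arrays, at 0.535 ± 0.116 (SD, n = 12, range 0.266 to 0.741), than on sham arrays, at 0.564 ± 0.072 (SD, n = 10, range 0.480 to 0.701). Its part in the spread was not tested. Without the 2 such arrays of this experiment 59 of 75 members, 78.7% against 65.7% of all probe sets, had the larger SD, and the median difference of the 80 members was 0.025 in place of 0.045. At an unadjusted p under 0.05, 6 of 75 members (8.00%) then stood higher in place of 10, against 4.02% of all probe sets. Ndufc2, Ndufb1, Ndufb7 and Ndufs6 then differed by 0.13 ± 0.048, 0.13 ± 0.058, 0.10 ± 0.054 and 0.089 ± 0.042 (SE). Oligodendrocyte markers had 17 of 19 negative differences in the same comparison and a median of -0.12, and neuronal markers had 9 of 10 negative and a median of -0.049. Their part in the result was not tested.

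**Figure D2:**
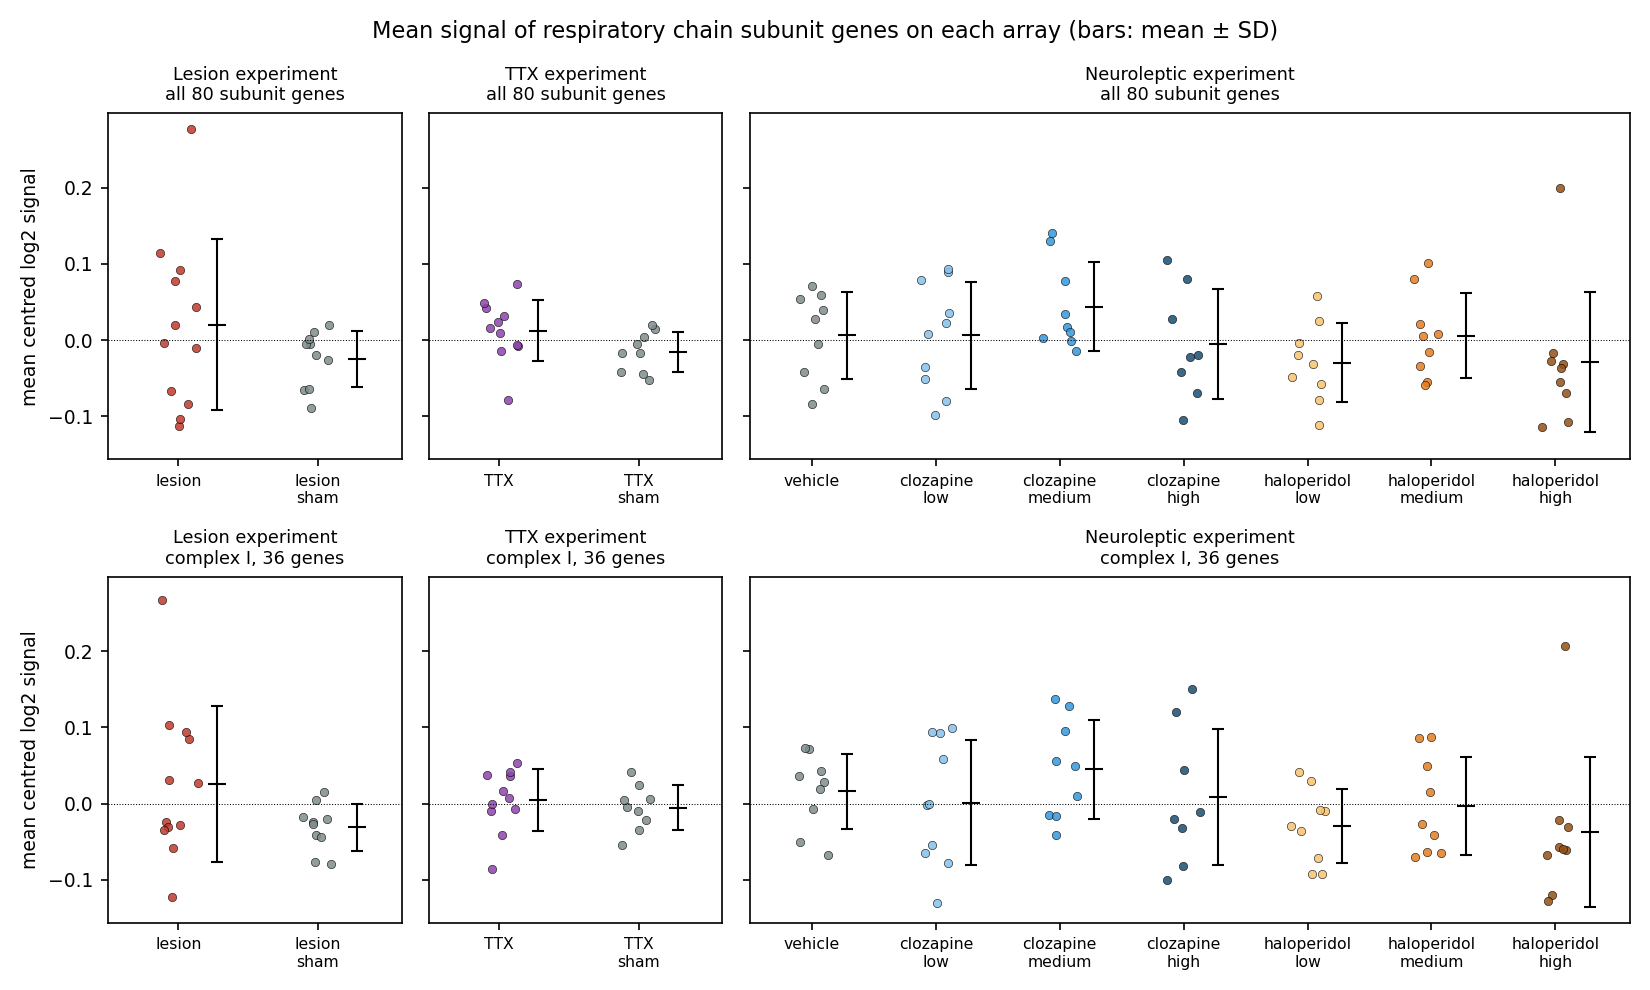
Mean centred log2 signal per array (y axis) for all 80 subunit genes (top) and the 36 genes of complex I (bottom), by group, with mean and SD beside the points. The lesion arrays run over -0.113 to 0.277 for all 80 genes, a range that holds every sham array, and the TTX and drug groups overlap their references.

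In the TTX experiment no member was called, 0% of 18625 probe sets were, and 1 of 75 members (1.33%) had an unadjusted p under 0.05, against 4.66% of all probe sets. Of the 80 members 48 had positive differences, with a median of 0.017, and the median was 0.0094 in complex I. The member with the smallest p was Cox6c, a subunit of cytochrome oxidase, at 15.97, 16.05 and 16.15 (lowest, median, highest) on the 11 TTX arrays and 15.87, 15.98 and 16.08 on the 9 sham arrays, with a difference of 0.084 ± 0.039 (SE, limma adjusted p = 0.999). Sdhc, a membrane anchor of succinate dehydrogenase, stood at 14.16, 14.26 and 14.35 on TTX arrays and 14.23, 14.30 and 14.50 on sham arrays, a difference of -0.078 ± 0.042 (SE). Both pairs of groups overlapped.

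The lesion effect minus the TTX effect was tested in a joint fit of the 2 experiments, over 18389 probe sets. No member was called and 0% of probe sets were, and 3 of 75 members (4.00%) had an unadjusted p under 0.05, against 6.31% of all. These were Ndufc2 at 0.17 ± 0.064 (SE), Sdhc at 0.14 ± 0.057 (SE) and Atp5mk, a small membrane subunit of the synthase, at 0.14 ± 0.064 (SE), with limma adjusted p of 0.712, 0.714 and 0.778. The median over the 80 members was 0.027, with 57 positive.

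**Figure D3:**
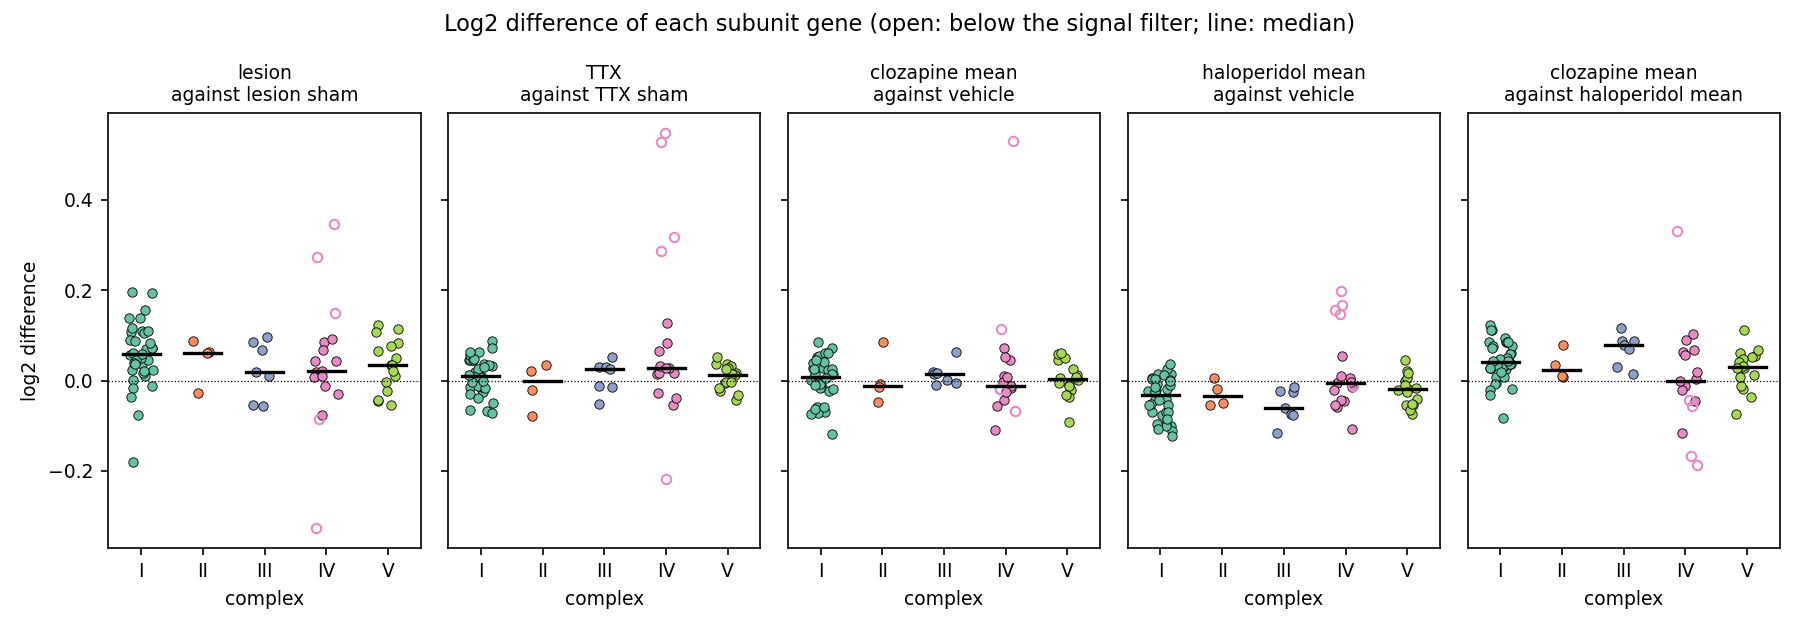
Log2 difference of every subunit gene (y axis) by complex (x axis) in 5 comparisons, with a line at each complex's median. Open circles are the 5 genes below the signal filter, all in complex IV, and the medians of complexes I and III stand at 0.041 and 0.079 for clozapine against haloperidol.

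Clozapine against vehicle gave no calls among the subunits. The mean of the 3 dose levels had 0% of 18625 probe sets called, 1 of 75 members (1.33%) at an unadjusted p under 0.05 against 3.82% of all, and 42 of 80 positive differences with a median of 0.0018. The smallest p belonged to Sdhb, the iron-sulfur subunit of succinate dehydrogenase, which averaged 14.50 ± 0.088 (SD, n = 27) over clozapine arrays and 14.41 ± 0.14 (SD, n = 9) over vehicle arrays. Its difference was 0.086 ± 0.042 (SE, limma adjusted p = 0.977). The lowest, median and highest values were 14.32, 14.51 and 14.69 on clozapine arrays and 14.19, 14.44 and 14.56 on vehicle arrays, and the groups overlapped. Ndufa8, an accessory subunit of complex I, stood above the vehicle mean on 23 of 27 clozapine arrays, at 0.073 ± 0.047 (SE), and Atp5me, a membrane subunit of the synthase, stood below it on 22 of 27, at -0.091 ± 0.063 (SE). The medians at low, medium and high clozapine were -0.0024, 0.029 and -0.013, with 36, 62 and 33 of 80 positive, against 0.0019 over all probe sets at the medium level. At these levels 0%, 0.0215% and 0.00537% of probe sets and no member were called, and 1 member each had an unadjusted p under 0.05, against 2.72%, 4.05% and 3.88% of all. All comparisons with vehicle used the same 9 vehicle arrays.

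Haloperidol against vehicle had mostly negative differences among the subunits. For the mean of the dose levels 21 of 80 members were positive and the median was -0.024, against -0.013 over all probe sets tested. No member was called, and 0.0215% of probe sets were, while 3 of 75 members (4.00%) stood lower at an unadjusted p under 0.05, against 3.29% of all on the lower side and 6.77% on either. Complex III had 0 of 7 positive and a median of -0.060, and complex I had 9 of 36 and -0.033. Electron carriers and quinone-linked enzymes had 3 of 16 positive, and citric acid cycle and pyruvate dehydrogenase genes 3 of 14, with 0 limma calls in either list and 0 and 1 genes at an unadjusted p under 0.05. Ribosomal proteins had 26 of 42 positive.

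The 3 members were Ndufb4, a membrane arm subunit, Uqcrc1, a core protein of complex III, and Ndufs7. Uqcrc1 averaged 14.59 ± 0.13 (SD, n = 27) over haloperidol arrays and 14.71 ± 0.11 (SD, n = 9) over vehicle arrays, a difference of -0.12 ± 0.054 (SE, limma adjusted p = 0.712), and 21 of 27 haloperidol arrays lay below the vehicle mean. Ndufb4 differed by -0.10 ± 0.044 (SE) and Ndufs7 by -0.11 ± 0.054 (SE), each with 22 of 27 arrays below. Over all 80 members, 27 were negative and 1 was positive in every block. Without the low-correlation arrays 6 of 75 members (8.00%) stood lower at an unadjusted p under 0.05, against 3.40% of all probe sets.

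By dose level, the low, medium and high haloperidol medians were -0.040, -0.011 and -0.035, with 15, 31 and 29 of 80 positive. With the 3′ to 5′ ratio of control probe sets as a covariate the medium and high medians were 0.0017 and 0.00071, and with a spline of the sample number the medium median was 0.012. No member was called, beside 0%, 0.00537% and 0.0268% of probe sets, and 3, 0 and 6 of 75 members had an unadjusted p under 0.05, all lower, beside 4.25%, 4.69% and 7.74% of all probe sets. The 6 at the high level (8.00% of members, against 4.60% of all probe sets on the lower side) were Ndufs7, Uqcrc1, Ndufb10, Ndufs3, Ndufab1 and Ndufa7, of which Ndufb10, Ndufab1 and Ndufa7 were named after their values were seen. Ndufs7 ran over 13.75, 14.00 and 14.02 on the 9 high haloperidol arrays and 13.97, 14.11 and 14.40 on the 9 vehicle arrays, so that every high haloperidol array lay below the vehicle mean of 14.15 while the groups overlapped. The difference was -0.19 ± 0.066 (SE, limma adjusted p = 0.423). Uqcrc1 differed by -0.18 ± 0.066 (SE) and Ndufs3 by -0.15 ± 0.067 (SE).

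Haloperidol high replicate 8 went against its group, with the highest 80-gene score, 0.200, where the group's median was -0.037. Without the low-correlation arrays the high level's median over the 80 members was -0.055 in place of -0.035, and its mean score was -0.054 ± 0.037 (SD, n = 8) against 0.0095 ± 0.057 (SD, n = 9) on vehicle arrays. At an unadjusted p under 0.05, 11 members (14.7%) then stood lower in place of 6, against 4.09% of all probe sets.

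Across the dose series the means of Ndufs7 were 14.15 on vehicle arrays, then 14.11, 14.20 and 14.17 at low, medium and high clozapine, and 14.06, 14.10 and 13.95 at low, medium and high haloperidol, with SDs of 0.094 to 0.19. Those of Uqcrc1 were 14.71 on vehicle arrays, 14.69, 14.75 and 14.69 with clozapine, and 14.64, 14.61 and 14.53 with haloperidol, with SDs of 0.11 to 0.21. Neighbouring groups in these orders overlapped.

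The same measure of RNA quality differed between the drug groups. The log2 ratio of the 3′ to the 5′ control probe sets of Gapdh and beta-actin averaged 0.600 ± 0.055 (SD, n = 9) at high haloperidol, 0.548 ± 0.087 at medium and 0.557 ± 0.067 at low, 0.524 ± 0.057 (SD, n = 10), 0.508 ± 0.049 (SD, n = 9) and 0.495 ± 0.061 (SD, n = 8) at low, medium and high clozapine, and 0.505 ± 0.061 (SD, n = 9) on vehicle arrays. With the ratio as a covariate the haloperidol differences of Ndufs7 and Uqcrc1 were -0.035 ± 0.050 and -0.047 ± 0.050 (SE), and that of Ndufb4 was -0.11 ± 0.047 (SE). The cause was not tested.

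**Figure D4:**
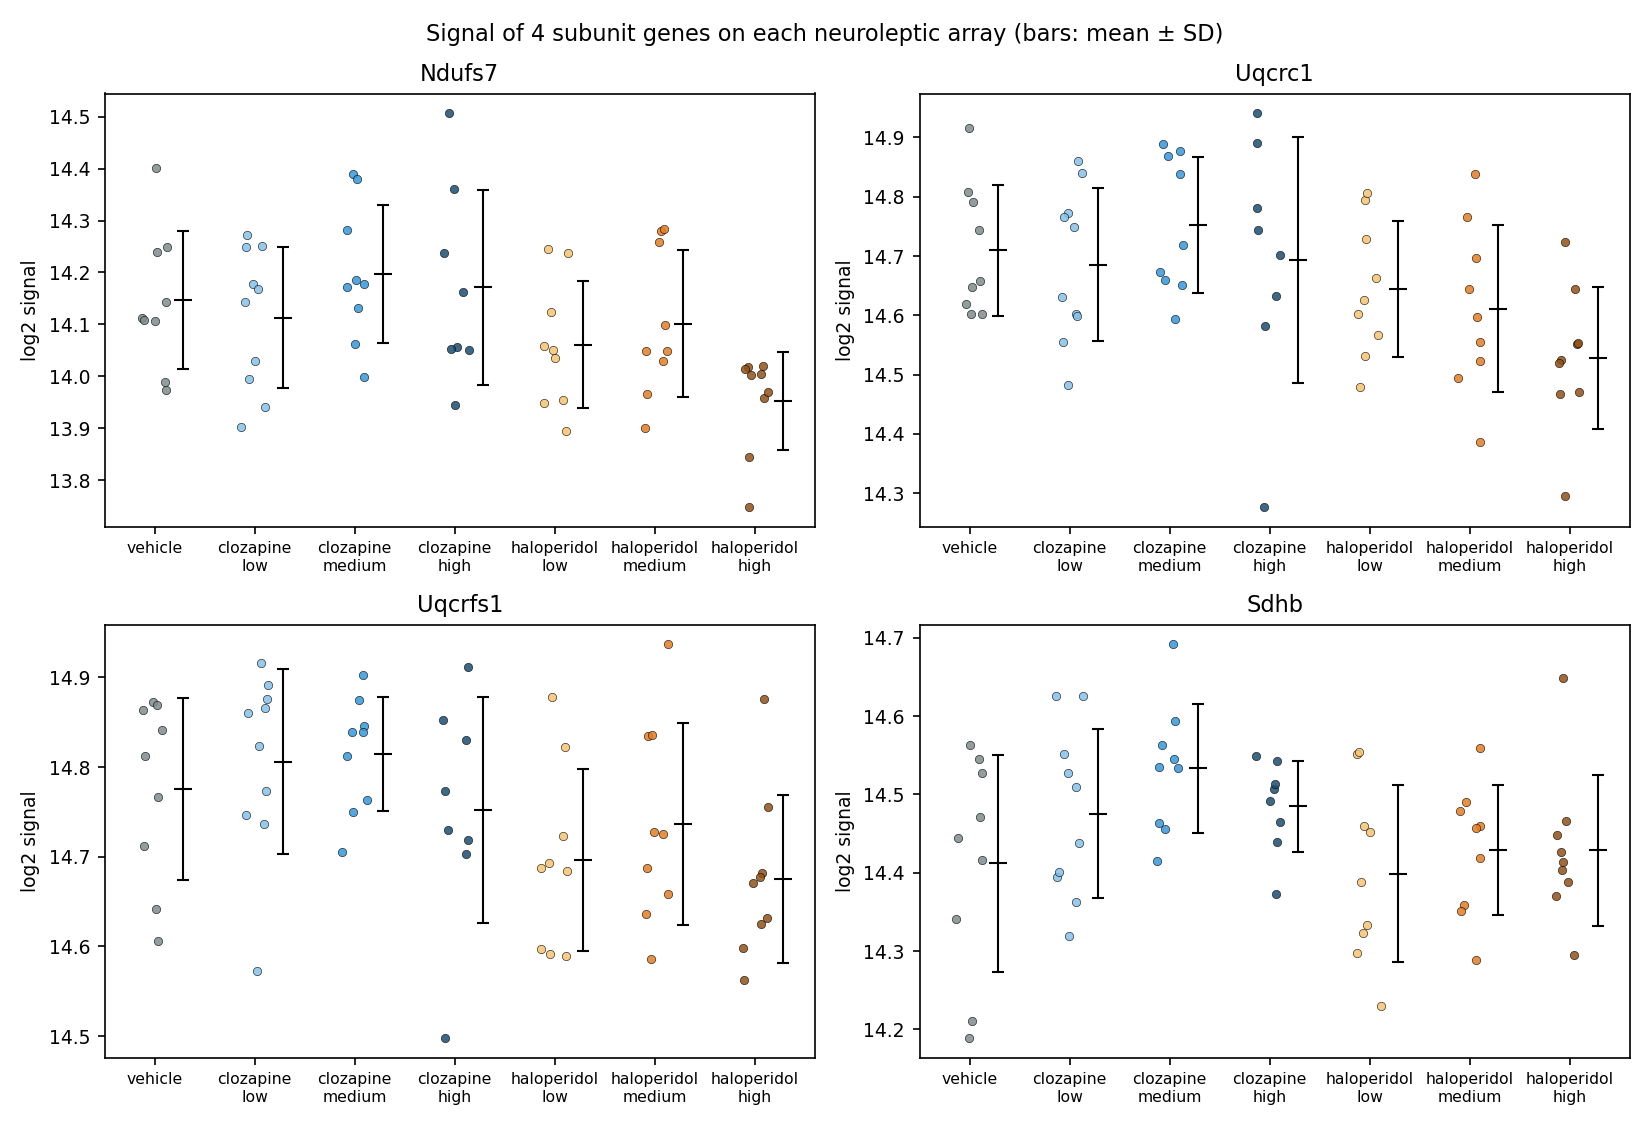
Log2 signal (y axis) of Ndufs7, Uqcrc1, Uqcrfs1 and Sdhb on each neuroleptic array, by group, with mean and SD beside the points. For Ndufs7 the 9 high haloperidol arrays lie at or below 14.02, under the vehicle mean of 14.15, and the groups overlap.

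Clozapine was then set against haloperidol, each as the mean of its low, medium and high levels, with 27 arrays per drug. This comparison gave the largest share of subunits at an unadjusted p under 0.05 among the 12 comparisons. Its median SE for members, 0.035, was also the smallest of the 12. Of the 80 members 61 stood higher with clozapine, with a median difference of 0.035, against 0.012 over all probe sets tested. Complex III had 7 of 7 positive and a median of 0.079, complex I 30 of 36 and 0.041, complex II 4 of 4 and 0.023, complex V 12 of 16 and 0.030, and complex IV 8 of 17 and -0.0021. No member passed an adjusted p under 0.05, while 225 of 18625 probe sets (1.21%) did. At an unadjusted p under 0.05, 16 of 75 members (21.3%) stood higher and 1 lower, against 8.49% of all probe sets on the higher side and 15.2% on either. Without the low-correlation arrays 20 stood higher (26.7%), against 7.94% of all. The single lower one was Cox5a, read from a probe set of low signal and named after its values were seen, at -0.12 ± 0.058 (SE). Proteasome subunits had 28 of 36 positive and a median of 0.037, and ribosomal proteins 30 of 42 and 0.020.

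The smallest p belonged to core subunits of complexes I and III. Ndufs7 ran over 13.90, 14.17 and 14.51 (lowest, median, highest) on clozapine arrays and 13.75, 14.02 and 14.28 on haloperidol arrays, with a difference of 0.12 ± 0.038 (SE, limma adjusted p = 0.0867). The groups overlapped, and 21 of 27 clozapine arrays lay above the haloperidol mean. Uqcrc1 ran over 14.28, 14.72 and 14.94 on clozapine arrays and 14.30, 14.57 and 14.84 on haloperidol arrays, a difference of 0.12 ± 0.038 (SE, adjusted p = 0.105 by limma). Uqcrfs1, the Rieske iron-sulfur protein of complex III, lay over the haloperidol mean on 24 of 27 clozapine arrays, with medians of 14.82 for clozapine and 14.68 for haloperidol and a difference of 0.088 ± 0.030 (SE). The remaining complex III genes gave 0.088 ± 0.040 for Uqcr10, 0.079 ± 0.037 for the core protein Uqcrc2, 0.070 ± 0.050 for Uqcrq, 0.030 ± 0.027 for Uqcrh and 0.015 ± 0.024 for Uqcr11 (SE), so that the small subunits Uqcrh and Uqcr11 stood lowest. The differences were 0.11 ± 0.039 (SE) for Ndufs3, 0.079 ± 0.030 (SE) for Sdhb and 0.077 ± 0.028 (SE) for Ndufa4, which is now assigned to cytochrome oxidase. Other core subunits gave smaller values, as with the flavoprotein Sdha at 0.0074 ± 0.028 (SE), Ndufv1 at 0.044 ± 0.024 (SE) and the ATP synthase catalytic subunit Atp5f1b at -0.018 ± 0.022 (SE).

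Whether subunits were called depended on how array order, array weights and the 3′ to 5′ ratio were treated. With the block of sample numbers as a term, 10 of 75 members (13.3%) were called, all higher with clozapine, against 7.15% of probe sets called in either direction and 3.26% called higher. They were Ndufs3 (limma adjusted p = 0.00836), Ndufs7 (0.0176), Uqcrc1, Cox5b, Uqcrfs1, Sdhb, Ndufa9, Ndufv3, Uqcr10 and Ndufb6, and Cox5b and the last 4 were named after their values were seen. Without the block, Ndufa9 stood at 0.085 ± 0.037 (SE) on the probe set used and 0.00038 ± 0.078 (SE) on its other one, and Uqcrc2 at 0.079 ± 0.037 and -0.058 ± 0.19 (SE), the other probe sets having the larger errors. Array weights gave 3, Uqcrc1, Ndufa4 and Uqcrfs1, against 2.85% called and 1.05% called higher, and the block with the low-correlation arrays left out gave 15, against 7.40% and 3.54%. With a spline of the sample number, with the 3′ to 5′ ratio as a covariate, or with the block and that ratio together, 0 members and 0 probe sets were called. The median over the 80 members was then 0.0051, 0.015 and 0.018. Ndufs7 stood at 0.052 and Uqcrc1 at 0.079 with the spline, and at 0.054 and 0.053 with the ratio. Within the 3 blocks the median differences of complex III were 0.067, 0.074 and 0.070, and those of all members 0.035, 0.059 and 0.018, and 35 of 80 members were positive in every block while 4 were negative in every block.

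**Figure D5:**
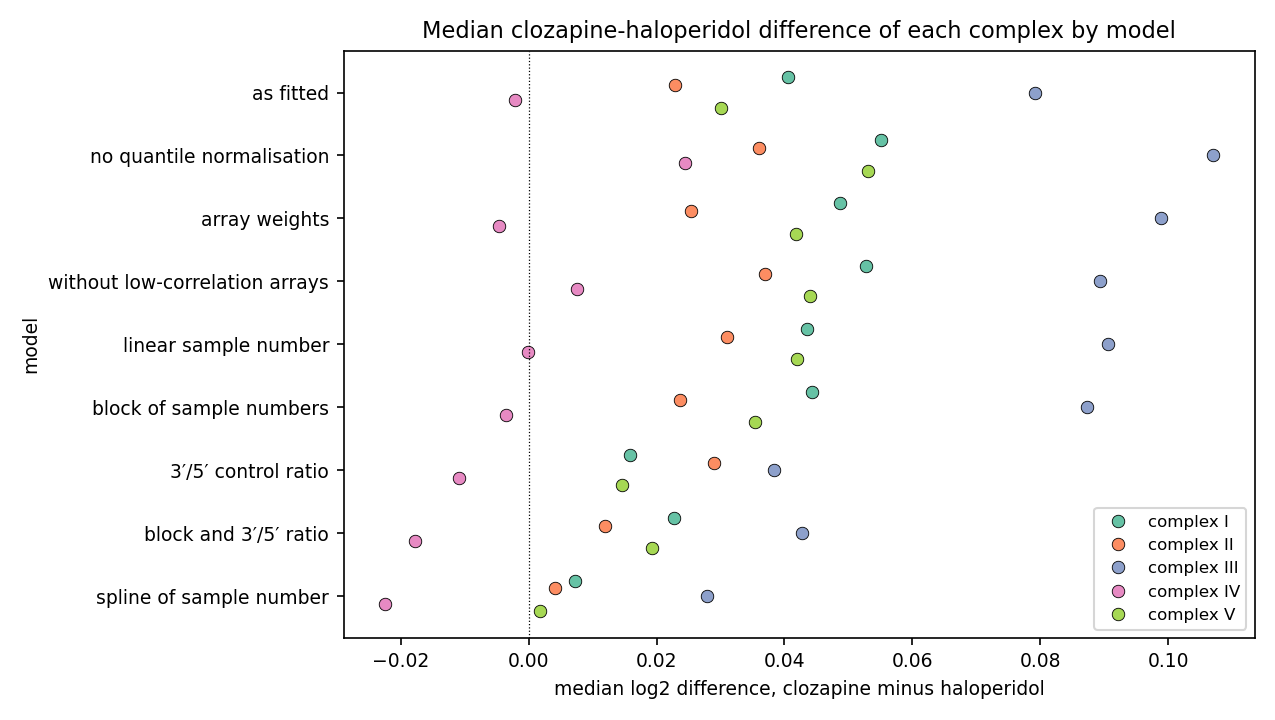
Median clozapine minus haloperidol log2 difference (x axis) of each complex under 9 models (y axis). Complex III runs highest in all 9, at 0.079 as fitted and 0.028 with a spline of the sample number.

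Related mitochondrial lists had 0 genes called by limma in the clozapine and haloperidol comparison, and 8 of 41 assembly factors, 2 of 16 electron carriers and quinone enzymes, 4 of 22 carriers, porins and import genes, 1 of 19 biogenesis regulators and 2 of 14 citric acid cycle and pyruvate dehydrogenase genes at an unadjusted p under 0.05, against 15.2% of all probe sets. Assembly factors had 30 of 44 positive differences and a median of 0.034, electron carriers and quinone-linked enzymes 13 of 16 and 0.051, mitochondrial carriers, porins and import genes 18 of 22 and 0.036, and regulators of mitochondrial biogenesis 15 of 20 and 0.039, against 0.012 over all probe sets tested. Citric acid cycle and pyruvate dehydrogenase genes had 9 of 14 and 0.016. Endothelial and mural cell markers had 10 of 14 positive and a median of 0.099, while neuronal markers had 5 of 10 and -0.00025. The part of cell makeup in the subunits' values was not tested.

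Isoforms of cytochrome oxidase differed by amounts near their errors. The muscle isoforms Cox6a2 and Cox7a1 differed by 0.067 ± 0.083 and 0.10 ± 0.067 (SE) for clozapine against haloperidol, and Cox4i1 by -0.012 ± 0.020 (SE), with limma adjusted p of 0.723, 0.463 and 0.804. Ndufa4l2, a paralogue of Ndufa4 known from the hypoxia response, differed by -0.019 ± 0.099 (SE).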

How the data were processed

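Signal was measured in 105 samples with Affymetrix rat arrays. The deposited values are intensities per probe set on a linear scale, and the values show that the authors scaled each array to a common trimmed mean (2500.62 to 2500.77). No source used here gives the software, background correction or summarisation. No detection calls were used. Within each experiment intensities were quantile-normalised, raised to a floor of 32 and put on the log2 scale. The 57 control probe sets were left out and the 60% with the highest mean tested, with limma 3.58.1 in R 4.3.3 and Benjamini-Hochberg adjustment. The neuroleptic groups shared 1 spread. Gene symbols came from the platform table, and all 80 matched RefSeq by Entrez identifier. Members and lists were chosen with earlier results of these data known. Members named were those past the threshold, 3 per direction by smallest p in 5 comparisons (lesion, TTX, their difference, and each drug mean against vehicle), the brightest and dimmest of each complex, and a list of catalytic subunits and isoforms. Alternatives covered normalisation, filter, floor, probe sets, sample number, RNA quality, array weights and single arrays. The model was tested on simulated data, where it missed most small changes. The number of arrays limits precision, with a median SE of 0.035 to 0.069 for members.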

Additional observations from a re-analysis of the deposited data

Results flagged for a closer look

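Among groups of 4 to 10 arrays, 495 sets of values were screened for an array whose gap to its nearest neighbour took an unusually large share of the group's range, and 39 were found. Chance gives about 5% of such sets. The lesion and TTX groups, with 12 and 11 arrays, were too large for this screen and were not screened. Haloperidol high replicate 8, an array of low correlation, accounted for many. Its mean centred log2 value was the highest of 9 for complex I (0.207), all members (0.200), complex III (0.160), complex V (0.199). Its log2 values were the highest of the group for Atp5if1 (14.88), Atp5mk (16.21), Atp5pf (15.14), Cox4i1 (16.46), Cox6c (16.42), Ndufa4 (15.89), Ndufb1 (14.52), Ndufc2 (15.19), Ndufv2 (14.92), Sdhb (14.65), Uqcrq (15.03), and the lowest for Ndufv1 (14.06). Other complex means that stood apart were complex IV on TTX sham replicate 3 (0.196, highest) and complex II on clozapine high replicate 1 (0.129, highest). Single genes were highest in their group, in log2, for Atp5f1d on haloperidol medium replicate 4 (15.02), Atp5me on clozapine medium replicate 7 (13.79), Atp5pf on lesion sham replicate 10 (14.77), Cox7b on TTX sham replicate 1 (15.98), Cox8b on vehicle replicate 7 (7.85), Cox8b on haloperidol high replicate 4 (6.65), Cox8b on haloperidol low replicate 5 (7.59), Ndufa8 on lesion sham replicate 6 (15.16), Sdhc on haloperidol low replicate 8 (14.24), Uqcrq on TTX sham replicate 7 (14.82). Single genes were lowest in their group, in log2, for Atp5me on vehicle replicate 2 (13.25), Cox4i2 on haloperidol high replicate 7 (6.37), Cox6a1 on haloperidol low replicate 6 (15.56), Cox7b2 on clozapine high replicate 4 (5.42), Ndufa3 on clozapine low replicate 9 (13.77), Ndufa4 on haloperidol medium replicate 2 (15.43), Ndufc2 on TTX sham replicate 4 (14.61), Ndufs1 on lesion sham replicate 9 (13.65), Sdha on haloperidol medium replicate 4 (14.34), Sdhc on vehicle replicate 4 (13.94), Uqcrfs1 on clozapine low replicate 1 (14.57). No member was opposite in every lesion and every TTX array relative to the mean of its sham group.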

How the results depend on the processing

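No paired analysis was possible because the labels give no replicate numbers that groups share. The count of called members was 0 as reported in all 12 comparisons. It stayed at 0 under 803 of 807 alternatives, of which each comparison had 13 plus single arrays left out. The exceptions, all for clozapine against haloperidol, were 10 with the block of sample numbers, 3 with array weights, 15 with the block and without the low-correlation arrays (chosen, like the spline and the block with the 3′ to 5′ ratio, after seeing the data), and 3 without clozapine high replicate 2. Leaving out single arrays gave 0 to 3 in that comparison. For refits without a single array the count over all probe sets was not kept, so these 3 have no share of all probe sets beside them. Over all probe sets, 225 were called in that comparison, 49 with no filter, 68 without the low-correlation arrays, 531 with array weights, 1331 with the block, 1379 with the block and without the low-correlation arrays, and 0 with the spline, the 3′ to 5′ ratio or the block and ratio together. In the other comparisons the count was 0 to 5 and lay between 0 and 14 under the 13 alternatives that kept it. The cause was not tested. With a median SE of 0.035 to 0.069 for members, differences of the size printed could seldom pass the adjustment, so counts of 0 do not show stability or absence of change. For the lesion the members' medians ran over 0.024 to 0.051 (0.025 to 0.058 with single arrays left out), for clozapine against haloperidol over 0.0051 to 0.052 (0.028 to 0.043), and for the haloperidol mean over -0.048 to 0.00048, positive only with the spline. The median changed sign for the clozapine mean under 4 of 13 alternatives, for low clozapine under 2, for high clozapine under 1 (values as deposited), for medium haloperidol under 2 (the ratio and the spline, up to 0.012) and for high haloperidol under 1 (the ratio, 0.00071). With single arrays left out, it changed sign in 9 of 63 refits for the clozapine mean, 6 for low clozapine and 2 for high clozapine. In every other comparison it did so in 0 of these refits.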
